A study of Mus musculus with 9 samples.

Results

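The genes described here are the parts of the G1 switch of the cell cycle: the D cyclins Ccnd1, Ccnd2 and Ccnd3, the E cyclins Ccne1 and Ccne2, the kinases Cdk4 and Cdk6, and the pocket protein genes Rb1, Rbl1 and Rbl2. They were chosen by name, by matching these 10 symbols to the Ensembl identifiers of the count tables. All 10 of 10 were found among the 49671 genes counted, and all 10 passed the filter on low counts. D cyclins bind CDK4 and CDK6 in response to growth signals, and the complexes phosphorylate the pocket proteins RB, p107 (from Rbl1) and p130 (from Rbl2). Unphosphorylated pocket proteins hold E2F transcription factors in check. Their phosphorylation frees E2F, which turns on genes of DNA replication, among them the E cyclins that activate CDK2. In resting cells p130 is known as the main partner of the repressor E2Fs, in the DREAM complex with the MuvB proteins, whereas p107 is known as a gene that E2F itself turns on as cells start to divide. RNA levels do not show how much of any of these proteins is phosphorylated.

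RNA was sequenced from KIT-positive, CD45-negative cells sorted from dermis of female C57BL/6 mice, a gate for the melanocyte lineage that leaves out immune cells. Melanoblasts came from newborn skin of postnatal day 0.5 (n = 3). Quiescent melanocyte stem cells (McSC) came from adult mice of 8 to 10 weeks (n = 4) and from aged mice of 24 months (n = 2). No allele or agent was added in any group, and hair follicles of the adult and aged mice were resting (telogen). Each library held pooled cells of several mice, so p-values measure the spread between these pools. Aged mice were obtained at 21 months from the NIA colony, and the younger mice from an in-house C57BL/6J colony, so colony and age cannot be told apart.

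Melanoblast libraries held 23688288 to 33710117 counts, adult libraries 19956424 to 21572026 and aged libraries 12594770 to 16362560. Levels in CPM (counts relative to library size) were scaled by TMM factors and compare libraries. Levels in TPM, which also divide by gene length, compare genes within a library only. On the leading principal component adult replicate 2 and melanoblast replicate 3 stood nearest to each other's group, at 1.13 against 52.8 to 124.6 in the other McSC libraries and at -88.0 against -218 and -163 in the other melanoblast libraries. Without these 2 libraries the counts called among the genes described here were 0 higher and 5 lower in adult McSC over melanoblasts, 0 and 0 in aged over adult McSC, and 0 higher and 8 lower in aged McSC over melanoblasts. Of the 31557 genes tested in that fit, 8071, 52 and 9489 were called higher and 6971, 226 and 7370 lower in the same order of comparisons. With all 9 libraries, 4836, 17 and 6514 of 31961 genes were called higher and 5840, 80 and 6491 lower, so more genes of any kind were called without the 2. Melanocyte lineage markers, 10 genes, summed to 14480 to 26270 CPM in melanoblast, 4480 to 10930 CPM in adult and 7487 to 8998 CPM in aged libraries, with Dct, a pigment enzyme gene, the most abundant. Keratinocyte markers, 11 genes led by the desmosome gene Dsp, summed to 79.5 to 252 CPM, 1014 to 2293 CPM and 855.5 to 1020 CPM in the same order of age. Of these markers 8 of 10 were called lower and 11 of 11 higher in adult McSC than in melanoblasts. Schwann cell markers (8 genes, led by Pmp22) summed to 454 to 613, 800 to 1264 and 317 to 380 CPM, and fibroblast markers (7 genes, led by Col3a1) to 545 to 2068, 465 to 932 and 112 to 221 CPM. Endothelial (6, led by Pecam1), macrophage (6, led by Cd68) and mast cell markers (6, led by Cpa3) summed to at most 195, 61.4 and 33.4 CPM in any library. No marker was at 0 in all libraries. The G1 genes are used by all these cell types, and the part of such cells in the results below was not tested. In such bulk samples fewer cells of a type and less RNA per cell cannot be told apart.

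The comparison of adult McSC with melanoblasts addresses what distinguishes the resting stem cell from its dividing precursor. Of the 10 genes, 5 fell in adult McSC: the cyclins Ccnd1, Ccnd2 and Ccne2, the kinase Cdk4 and the pocket protein gene Rbl1. The other 5, Ccnd3, Ccne1, Cdk6, Rb1 and Rbl2, did not pass the test. The falls were 2.78-fold for Ccne2 to 6.50-fold for Ccnd2. Calls are by edgeR's quasi-likelihood test with Benjamini-Hochberg adjustment over all 31961 genes tested, at 0.05. Of all genes, 18.3% were called lower and 15.1% higher. None of the 10 was called higher, none had an unadjusted p under 0.05 in that direction, and DESeq2 and limma voom called none higher either. With library factors from abundant genes alone, described further on, 4 were called higher, and with a stricter filter on low counts 1 was. In CPM scaled by factors over all genes, the same 5 genes were lower in every adult library than in any melanoblast library. This held for 19.8% of all genes and was not counted with the abundant gene factors. The median log2 fold change was -0.91 over the 10 genes and 0.39 over all genes tested. Over the 4043 abundant genes (average log2 CPM above 5) it was -0.80, near that of the 10. All 5 falls were called in each of 9 fits that left out 1 library.

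**Figure D1:**
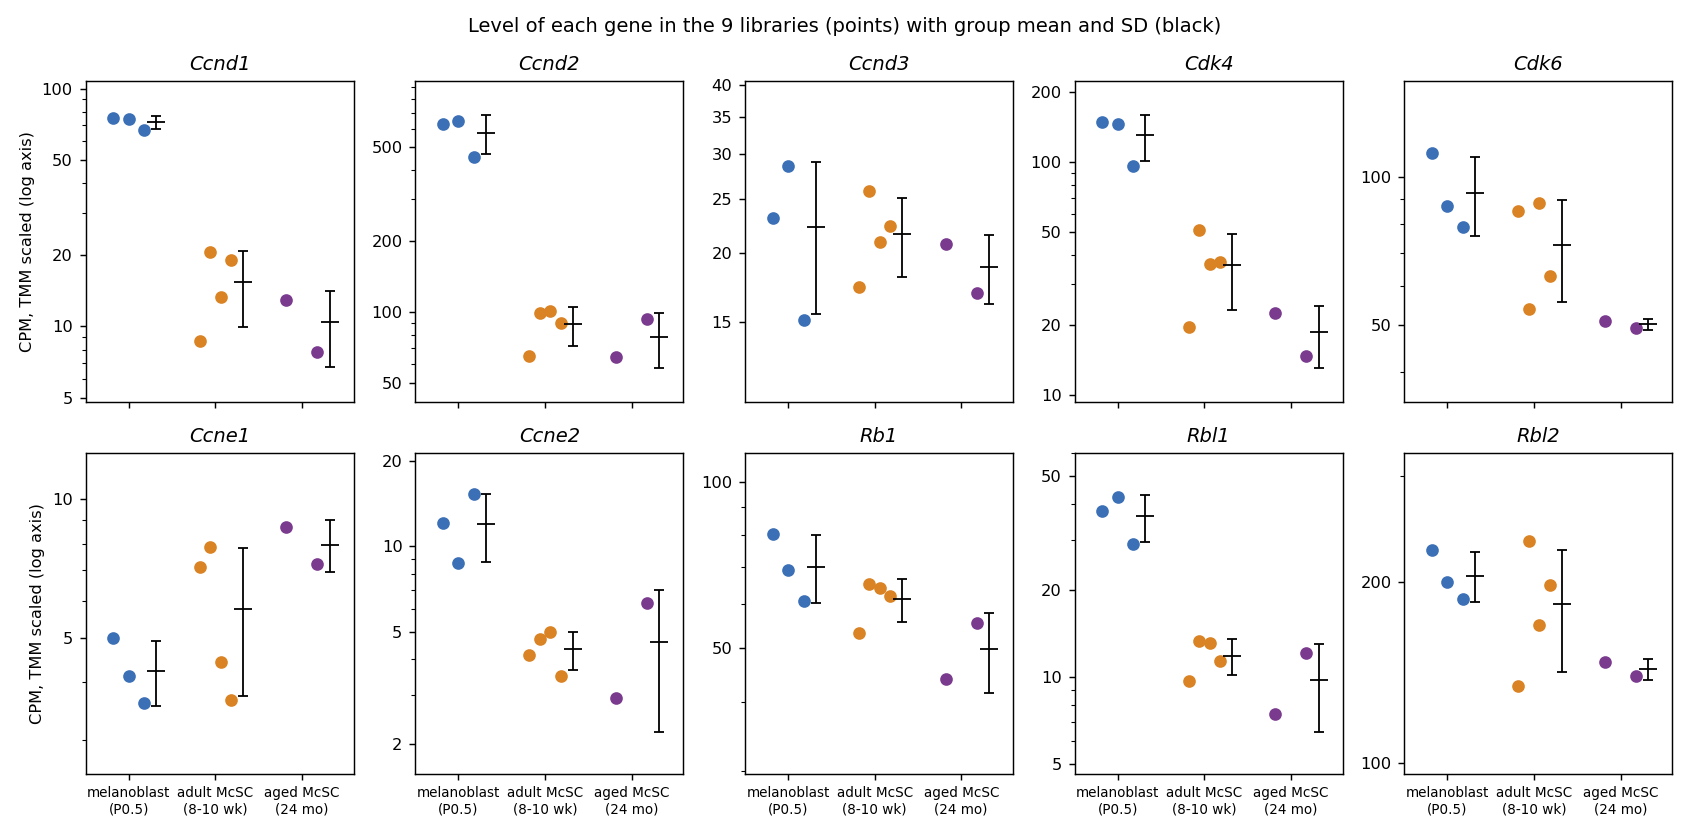
Level of each gene in CPM (TMM scaled, log axis) in the 3 melanoblast, 4 adult McSC and 2 aged McSC libraries, with each library as a point and the group mean and SD in black. Ccnd1, Ccnd2, Ccne2, Cdk4 and Rbl1 have all adult and aged points below all melanoblast points, and Rbl2 has adult points on both sides of the melanoblast ones.

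Ccnd2, a D cyclin, was the one with the most TPM of the 3 in every library. It lies on chromosome 6 from 127125162 to 127152193 on the minus strand (build mm10). It had 627, 647 and 453 CPM in melanoblast, 64.7, 99.2, 101.1 and 89.3 CPM in adult and 64.0 and 92.9 CPM in aged libraries. Every McSC library lay far below every melanoblast library, and the adult and aged values overlapped. The log2 fold change of Ccnd2 in adult McSC over melanoblasts was -2.70 (SE 0.237, adjusted p = 4.82e-09), the largest of the 10 in size. Ccnd1, the D cyclin best known as a target of growth factor signalling, lies on chromosome 7 from 144929931 to 144939925 on the minus strand. It had 75.4, 74.2 and 66.8 CPM in melanoblast, 8.73, 20.6, 13.3 and 18.9 CPM in adult and 12.98 and 7.81 CPM in aged libraries. Again no McSC library reached the lowest melanoblast value. Its log2 fold change in adult McSC over melanoblasts was -2.23 (SE 0.264, adjusted p = 5.92e-07).

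Ccnd3, the third D cyclin (chromosome 17, 47505051 to 47599691, plus strand), did not pass the test. It had 23.1, 28.6 and 15.1 CPM in melanoblast, 17.3, 25.8, 20.9 and 22.3 CPM in adult and 20.7 and 17.0 CPM in aged libraries. The adult values lay within the melanoblast range, and the log2 fold change in adult McSC over melanoblasts was -0.04 (SE 0.246, adjusted p = 0.904). Its 95% interval ran from -0.53 to 0.44.

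Of the partner kinases, Cdk4 fell in adult McSC and Cdk6 did not pass the test. Cdk4, a catalytic partner of the D cyclins (chromosome 10, 127063534 to 127067920, plus strand), had 148, 146 and 96.7 CPM in melanoblast, 19.6, 51.2, 36.4 and 37.1 CPM in adult and 22.5 and 14.6 CPM in aged libraries. All McSC values were below the melanoblast range, with adult replicate 1 lowest and adult replicate 2 highest of the adult group. The log2 fold change of Cdk4 in adult McSC over melanoblasts was -1.85 (SE 0.268, adjusted p = 1.03e-05). Cdk6, the other catalytic partner (chromosome 5, 3341485 to 3531008, plus strand), had 112, 87.3 and 79.2 CPM in melanoblast, 85.3, 53.7, 88.3 and 62.8 CPM in adult and 50.9 and 49.1 CPM in aged libraries. Adult and melanoblast values overlapped, while both aged values lay below all others. The log2 fold change of Cdk6 in adult McSC over melanoblasts was -0.35 (SE 0.224, adjusted p = 0.223; limma voom adjusted p = 0.0416).

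The E cyclins, which activate CDK2, had the fewest counts of the 10 genes, with 1133 for Ccne1 and 1268 for Ccne2 over the 9 libraries. Ccne2 (chromosome 4, 11191351 to 11204779, plus strand) had 12.1, 8.76 and 15.3 CPM in melanoblast, 4.13, 4.70, 4.99 and 3.50 CPM in adult and 2.91 and 6.31 CPM in aged libraries. All McSC values were below the melanoblast range, and the log2 fold change in adult McSC over melanoblasts was -1.47 (SE 0.321, adjusted p = 0.000969). Ccne1 (chromosome 7, 38097984 to 38107534, minus strand) had 4.98, 4.12 and 3.61 CPM in melanoblast, 7.13, 7.87, 4.42 and 3.66 CPM in adult and 8.69 and 7.23 CPM in aged libraries. Adult replicates 1 and 2 lay above the melanoblast range and replicates 3 and 4 within it. The log2 fold change of Ccne1 in adult McSC over melanoblasts was 0.45 (SE 0.343, adjusted p = 0.318). As a yardstick for low levels, 95% of 1700 odorant and pheromone receptor genes, few of which are known from skin, averaged no more than 0.823 CPM in melanoblast, 1.85 CPM in adult and 2.17 CPM in aged libraries. Each value of both E cyclins exceeded these levels, the lowest being 2.91 CPM of Ccne2 in an aged library. The receptor levels were themselves higher in McSC than in melanoblasts, the same direction as the log2 fold change of Ccne1.

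Among the pocket protein genes, Rbl1 fell and the others did not pass. Rbl1 (chromosome 2, 157145893 to 157204534, minus strand) had 37.6, 42.1 and 29.0 CPM in melanoblast, 9.66, 13.3, 13.2 and 11.4 CPM in adult and 7.44 and 12.1 CPM in aged libraries. The lowest melanoblast value was above every McSC value, and the log2 fold change in adult McSC over melanoblasts was -1.61 (SE 0.243, adjusted p = 1.74e-05). Rbl2 (chromosome 8, 91070057 to 91123844, plus strand), the gene of p130, had 227, 200.4 and 188 CPM in melanoblast, 135, 234, 169.6 and 198 CPM in adult and 147.5 and 139.5 CPM in aged libraries. The adult libraries spanned the melanoblast range on both sides, and the aged ones lay below it. The log2 fold change of Rbl2 in adult McSC over melanoblasts was -0.15 (SE 0.221, adjusted p = 0.605). Rb1 (chromosome 14, 73183673 to 73325822, minus strand) had 80.5, 69.1 and 60.8 CPM in melanoblast, 53.3, 65.3, 64.3 and 62.2 CPM in adult and 44.0 and 55.6 CPM in aged libraries. Adult and melanoblast values of Rb1 overlapped, at -0.20 on the log2 scale (SE 0.209; adjusted p = 0.481).

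The promoter stretches of Rbl1, Rbl2 and Cdk6 are shown because E2F is known to act on several G1 genes. Rbl1 fell in adult McSC, while Rbl2 and Cdk6 were not called. Each is the 250 bases before the RefSeq start, 5′ to 3′ on the strand of the gene, from windows of build GRCm38.p6 that also hold 50 bases after the start: chr2:157204485-157204784 (minus strand), chr8:91069807-91070106 (plus strand) and chr5:3343643-3343942 (plus strand). Capitals mark matches on either strand to the E2F-like letters TTTNNCGC.
Rbl1: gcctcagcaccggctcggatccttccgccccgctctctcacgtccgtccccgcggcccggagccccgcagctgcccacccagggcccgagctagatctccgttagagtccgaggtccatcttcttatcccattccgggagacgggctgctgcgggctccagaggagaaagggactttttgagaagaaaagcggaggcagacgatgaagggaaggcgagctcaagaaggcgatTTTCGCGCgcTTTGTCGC
Rbl2: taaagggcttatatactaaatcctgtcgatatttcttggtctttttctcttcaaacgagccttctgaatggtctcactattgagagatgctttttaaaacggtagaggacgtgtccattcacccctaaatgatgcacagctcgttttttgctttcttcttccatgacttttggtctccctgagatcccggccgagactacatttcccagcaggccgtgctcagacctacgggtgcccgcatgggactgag
Cdk6: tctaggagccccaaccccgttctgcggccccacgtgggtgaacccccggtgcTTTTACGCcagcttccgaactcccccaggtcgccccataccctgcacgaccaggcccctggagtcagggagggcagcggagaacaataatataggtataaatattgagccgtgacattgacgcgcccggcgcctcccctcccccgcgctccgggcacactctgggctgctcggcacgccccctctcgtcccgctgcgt
Rbl1, which fell, held 2 such matches, the first bases of which lie 18 and 8 bases before the start. Cdk6 held 1, with its first base 198 bases before the start, and Rbl2 held none. RefSeq windows were matched for 6 of the 10 genes (Ccnd3 with 2 windows, Ccne1, Cdk4, Cdk6, Rbl1 and Rbl2), and Rbl1 and Cdk6 were the only 2 with an E2F-like match. The window of Cdk4, which fell in adult McSC as Rbl1 did, held no such match. Any relation between matches and falls was not tested. Of all 32851 windows of the same 300 bases, 5.2% held one. Ccnd1, Ccnd2, Ccne2 and Rb1 had no window in the table. The CHR letters TTTGAA, which MuvB complexes are known to bind, were found in the Rbl2 window alone among the 6 genes (17.9% of all windows). CCAAT was found in 1 window of Ccnd3 (37.4% of all windows), and the GC box GGGCGG in the windows of Ccnd3, Ccne1, Cdk4, Rbl1 and Rbl2 (35.7% of all windows). No match overlapped a match to another of these motifs. A match describes letters, and no binding was measured here.

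Shares within a library do not depend on how libraries are scaled against each other, so they show how the make-up of each family differed. These shares and ratios are descriptions, with no test. Ccnd3 made up 3.16 ± 0.515% of the D cyclin TPM in melanoblasts (SD, n = 3), 16.4 ± 1.49% in adult (SD, n = 4) and 17.1 ± 3.85% in aged McSC (SD, n = 2). Its share in adult McSC was 5.23-fold that in melanoblasts by geometric means, and the lowest McSC library, at 14.4%, lay above the highest melanoblast library, at 3.71%. Ccnd2 took 77.2 ± 1.78%, 62.4 ± 4.06% and 65.2 ± 11.5% of the D cyclin TPM at the 3 ages, and Ccnd1 19.6 ± 2.22%, 21.1 ± 4.19% and 17.7 ± 7.64%. The Ccnd1 share overlapped between all groups, so Ccnd1 and Ccnd2 were lower together while Ccnd3 took a larger part of what remained. With the length of the longest transcript in place of all exons, the Ccnd3 share was 4.90%, 23.8% and 24.5% at the 3 ages.

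**Figure D2:**
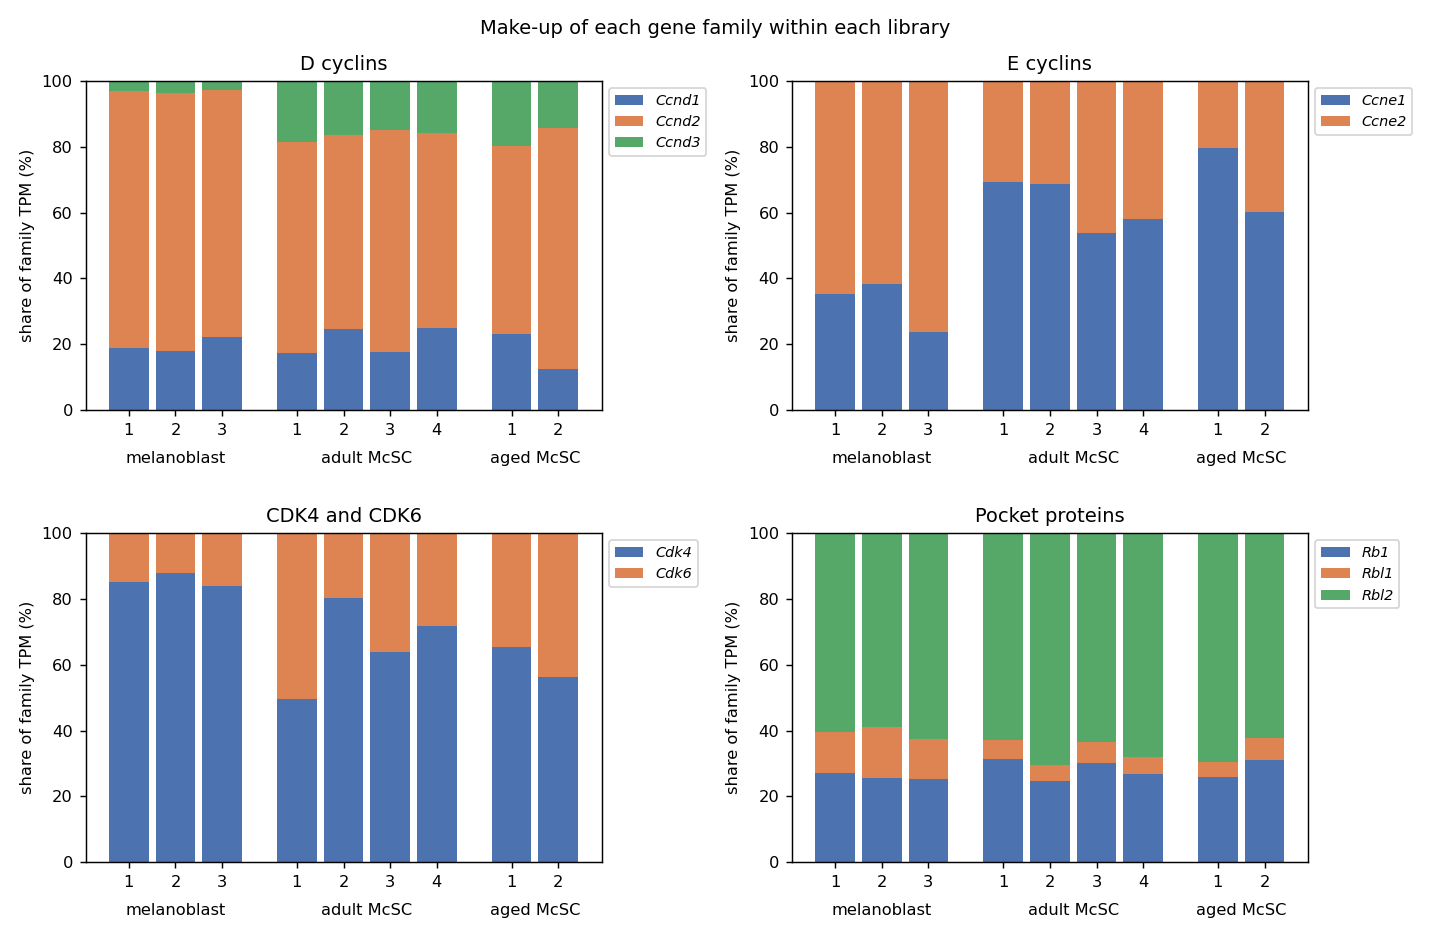
Share of each gene in the TPM of its family (%, stacked to 100) in each of the 9 libraries, numbered by replicate within melanoblast, adult McSC and aged McSC. The Ccnd3, Ccne1 and Cdk6 parts are larger and the Rbl1 part smaller in every McSC library than in any melanoblast library.

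The balance within the other families also differed. Ccne1 made up 32.3 ± 7.62% of the E cyclin TPM in melanoblasts, 62.4 ± 7.83% in adult and 69.9 ± 13.9% in aged McSC (SD, n = 3, 4 and 2), so the more abundant E cyclin was Ccne1 in all 6 McSC libraries and Ccne2 in all 3 melanoblast libraries. The TPM ratio of Cdk4 to Cdk6 was 5.71, 7.21 and 5.26 in melanoblast, 0.990, 4.11, 1.78 and 2.55 in adult and 1.903 and 1.28 in aged libraries. Its size depends on the gene length used. It averaged 6.06, 2.355 and 1.59 at the 3 ages, and 7.90, 3.07 and 2.08 with the length of the longest transcript. This ratio was the most variable of the 8 ratios computed among adult libraries in its spread relative to the mean. Adult replicate 1, with the lowest ratio, also had the lowest sum of melanocyte lineage markers of its group (4480 CPM), and adult replicate 2, with the highest ratio, the highest sum (10930 CPM); the part of lineage content in the ratio was not tested. Rbl1 made up 13.5 ± 1.87% of the pocket protein TPM in melanoblasts, 5.48 ± 0.596% in adult and 5.61 ± 1.68% in aged McSC. The ratio of Rbl2 to Rbl1 was 4.78, 3.77 and 5.14 in melanoblast, 11.05, 13.9, 10.2 and 13.8 in adult and 15.7 and 9.14 in aged libraries, without overlap between McSC and melanoblasts. Rbl2 to Rb1, in contrast, averaged 2.33, 2.38 and 2.34 at the 3 ages and overlapped throughout.

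The order of levels per length changed accordingly. In melanoblasts the highest TPM values were those of Ccnd2 at 72.9 ± 8.34, Cdk4 at 47.4 ± 2.98 and Rbl2 at 33.1 ± 8.00 (SD, n = 3), and none of these ranges overlapped the next gene in order. Ccnd1, Rb1, Cdk6, Rbl1, Ccne2, Ccnd3 and Ccne1 followed, where Ccnd1 and Rb1, Cdk6 and Rbl1, Rbl1 and Ccne2, and Ccne2 and Ccnd3 overlapped as neighbours. In adult McSC Rbl2 led with 55.9 ± 11.9 TPM (SD, n = 4), above the next gene in all 4 libraries. Cdk4 at 25.4 ± 8.60, Rb1 at 23.4 ± 1.44 and Ccnd2 at 21.6 ± 3.46 TPM followed with overlapping ranges. Below a gap came Cdk6, Ccnd1, Ccnd3, Ccne1 and Rbl1, each overlapping the next, and Ccne2 was lowest at 2.85 ± 0.366 TPM. In aged McSC Rbl2 led as well, with 60.8 and 58.7 TPM, followed by Ccnd2, Rb1, Cdk4, Cdk6, Ccne1, Ccnd1, Ccnd3, Rbl1 and Ccne2, with overlap between Ccnd2 and Rb1 and from Ccnd1 downwards. These orders hold for the length of all exons and can change with another length. With the longest transcript Ccnd3 lay above Ccnd1 in McSC, at 23.8% against 17.0% of the D cyclin TPM in adult and 24.5% against 14.1% in aged McSC.

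For Ccnd3, Cdk6, Rb1 and Rbl2 in adult McSC over melanoblasts the direction depended on the scaling of libraries, whereas Ccne1 was above 0 in both scalings. TMM factors over all genes kept ranged between 0.560 and 0.842 in melanoblast, between 1.09 and 1.21 in adult and between 1.38 and 1.52 in aged libraries, and factors from the abundant genes alone (average log2 CPM above 5) were 0.895 to 1.15 over all libraries. With the abundant gene factors the median of all genes in adult McSC over melanoblasts was 1.15 in place of 0.39. Of all calls, 84.0% were then higher, against 45.3% with the factors over all genes. In that scaling 32.6% of all genes were called higher and 6.21% lower. Ccnd1, Ccnd2, Cdk4 and Rbl1 were still called lower (log2 fold changes -1.49, -1.92, -1.09 and -0.82), and Ccne2 was at -0.74 and not called (adjusted p = 0.111). Ccnd3, Ccne1, Rb1 and Rbl2 were called higher there, with log2 fold changes of 0.76, 1.23, 0.59 and 0.60 and adjusted p between 0.00379 and 0.014. Measured against the median of all genes, Ccnd3, Rb1 and Rbl2 lay at -0.59 to -0.39 from it over both scalings, and Ccne1 at 0.06 and 0.09. The median of the abundant genes was lower, at -0.80 with factors over all genes and -0.02 with the abundant gene factors. Ccnd3, Rb1, Rbl2 and Ccne1 lay above that median in both scalings.

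**Figure D3:**
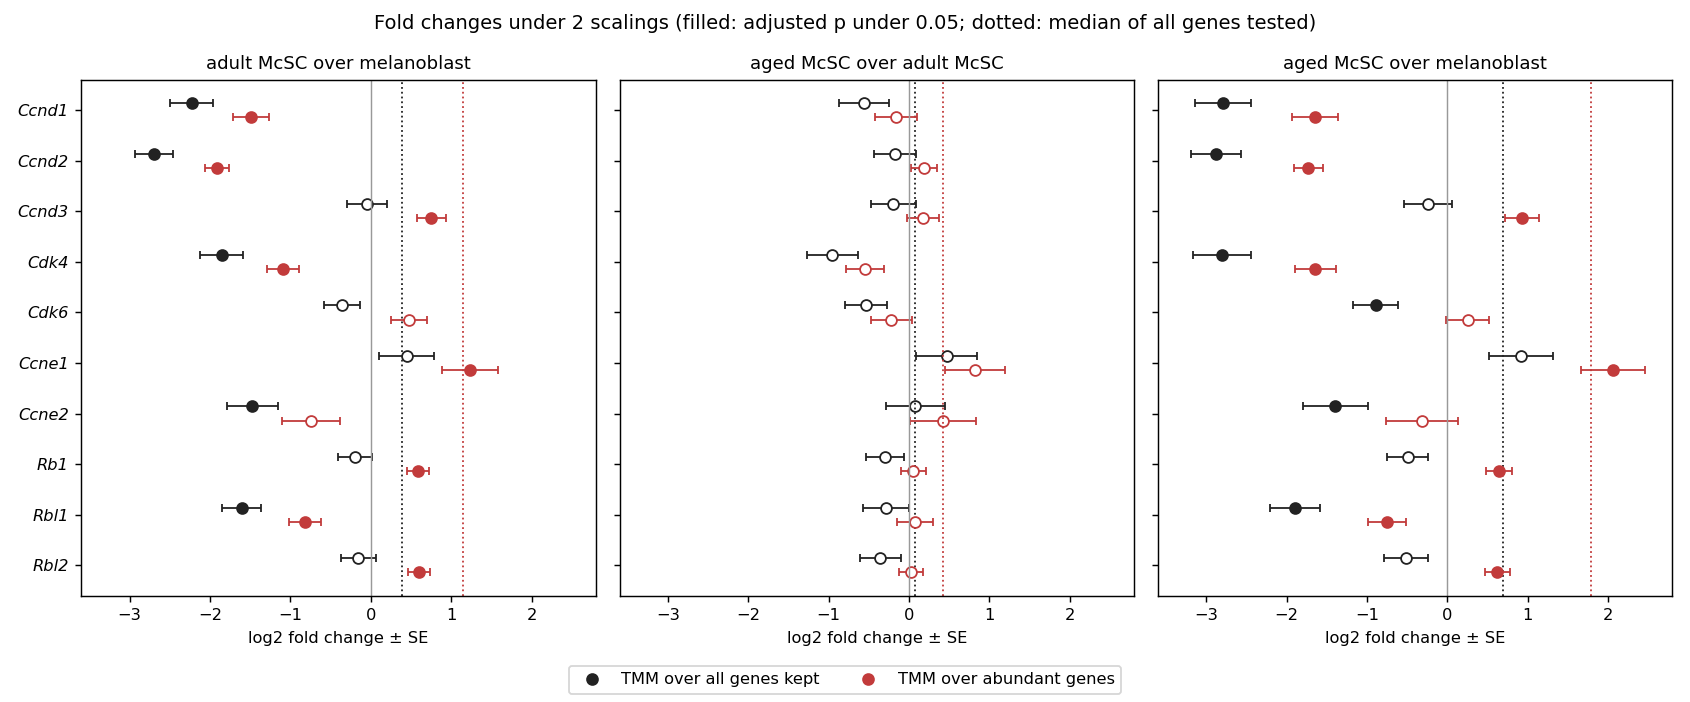
Log2 fold change with its SE for each gene in the 3 comparisons, with TMM factors over all genes kept (black) and over abundant genes (red), filled where the adjusted p was under 0.05, and the median of all genes dotted. Ccnd1, Ccnd2, Cdk4 and Rbl1 stay below 0 and filled in both scalings against melanoblasts, and no point is filled in aged over adult McSC.

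The comparison of aged with adult McSC, which addresses aging of the resting cell, gave no call among the 10 genes. By edgeR's quasi-likelihood test 0 were higher and 0 lower, against 0.0532% and 0.25% of all genes. At an unadjusted p under 0.05 only Cdk4 was lower, DESeq2 called none and limma voom called Cdk4 (adjusted p = 0.0404). Of all 31961 genes, 3275 had such an unadjusted p in either direction, and limma voom called 772 higher and 644 lower. Cdk4 averaged 18.6 ± 5.57 CPM in aged McSC (SD, n = 2) and 36.1 ± 12.9 CPM in adult McSC (SD, n = 4), or -0.95 ± 0.319 (SE) on the log2 scale with adjusted p = 0.299, and the aged replicate with 22.5 CPM exceeded the adult replicate with 19.6 CPM. With factors over all genes, only Cdk6 of the 10 had both aged CPM values below all adult ones, as for 12.1% of all genes. Its log2 fold change in aged over adult McSC was -0.54 (SE 0.262, adjusted p = 0.489). The other 8 log2 fold changes lay between -0.56 (Ccnd1) and 0.47 (Ccne1), with adjusted p from 0.537 to 0.96. The 95% intervals for Ccnd2 and Rbl2 ran from -0.70 to 0.34 and from -0.86 to 0.14, and differences within these bounds are not excluded by the test. Of all calls 17.5% were higher, and 56.1% with the abundant gene factors.

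Set against melanoblasts, aged McSC showed 6 falls among the 10 genes: the 5 of the adult comparison and Cdk6. Both comparisons use the same melanoblast libraries. Of all genes, 20.3% were called lower and 20.4% higher. No gene of the 10 was called higher by edgeR, DESeq2 or limma voom, and Ccne1 alone had an unadjusted p under 0.05 in that direction. Of all 31961 genes, 16246 had such a p in either direction by edgeR. The falls of Ccnd1, Ccnd2, Cdk4 and Rbl1 were 6.91-fold, 7.34-fold, 7.001-fold and 3.72-fold (log2 fold changes -2.79, -2.88, -2.81 and -1.89, adjusted p from 2.97e-07 to 5.79e-05). On the log2 scale Ccne2 fell by 1.39 ± 0.404 (SE; adjusted p = 0.00909) and Cdk6 by 0.89 ± 0.277 (SE; adjusted p = 0.0139). The call of Ccne2 was lost without aged replicate 1 (adjusted p = 0.201). The call of Cdk6 was lost without aged replicate 1, aged replicate 2 or melanoblast replicate 1 (adjusted p = 0.0895, 0.131 and 0.0648). In fits with 1 aged library, that library is assumed to vary like the other groups.

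Ccne1 was at 7.96 ± 1.03 CPM in aged McSC (SD, n = 2) and 4.24 ± 0.691 CPM in melanoblasts (SD, n = 3), or 0.91 ± 0.399 (SE) on the log2 scale with adjusted p = 0.0687. Both aged values exceeded all melanoblast values, as for 40.4% of all genes, and without adult replicate 1 the gene was called (adjusted p = 0.0454). In CPM scaled by factors over all genes, 8 of the 10 genes had both aged values below all melanoblast values. This held for 25.7% of all genes. Among the 8 were Rb1 (log2 fold change -0.50, adjusted p = 0.117) and Rbl2 (-0.51, adjusted p = 0.124). The separation depends on the scaling and was not counted with the abundant gene factors. With the abundant gene factors 48.0% of all genes were called higher and 5.54% lower, and of all calls 89.7% were higher, against 50.1% with factors over all genes. In that scaling Ccnd3, Ccne1, Rb1 and Rbl2 were called higher, Ccnd1, Ccnd2, Cdk4 and Rbl1 lower, and Ccne2 and Cdk6, at -0.32 and 0.25, were not called, so the direction of Cdk6 turned. The median of the 10 genes was -1.14 with factors over all genes (0.70 for all genes tested) and -0.03 with the abundant gene factors (1.78 for all genes tested). For the abundant genes the medians in these scalings were -1.12 and 0.03.

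Genes that act on or under this switch were grouped in 8 lists of 69 genes, 68 of them tested. In adult McSC over melanoblasts 1 rose and 52 fell, against 15.1% and 18.3% of all genes, and with the abundant gene factors 6 rose and 29 fell. In aged McSC over melanoblasts 1 rose and 49 fell, against 20.4% and 20.3% of all genes, and with the abundant gene factors 9 rose and 24 fell. In aged over adult McSC edgeR and DESeq2 called none, and limma voom called 2 higher. At an unadjusted p under 0.05 in edgeR, 4 were higher and 4 lower. Of all 31961 genes, 3275 had such a p in either direction, and limma voom called 772 higher and 644 lower. Of the 6 CDK inhibitors tested, 1 rose and 2 fell in adult McSC (median 0.44; 4 rose and none fell with the abundant gene factors). Cdkn1a, the gene of p21, averaged 284 ± 44.6 CPM in adult McSC (SD, n = 4) and 44.8 ± 9.46 CPM in melanoblasts (SD, n = 3), or 2.66 ± 0.247 (SE) on the log2 scale with adjusted p = 1.19e-08. On that scale Cdkn1b, the gene of p27, fell by 0.69 (adjusted p = 0.0343) and was at 0.09 with the abundant gene factors, not called. Its call was also lost with DESeq2 (adjusted p = 0.0508) and held in 3 of 9 fits that left out 1 library, those without melanoblast replicate 3, adult replicate 2 or aged replicate 1 (adjusted p up to 0.182 over the 9). Cdkn2c, an inhibitor of CDK4 and CDK6, averaged 7.27 CPM in adult McSC and 18.7 CPM in melanoblasts, a log2 fold change of -1.36 (adjusted p = 0.000812; -0.55 and not called with the abundant gene factors). Cdkn2a, the senescence-linked inhibitor locus, was too low to be tested, at 0 CPM in melanoblast, 0 to 0.125 CPM in adult and 0.116 to 0.162 CPM in aged libraries.

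**Figure D4:**
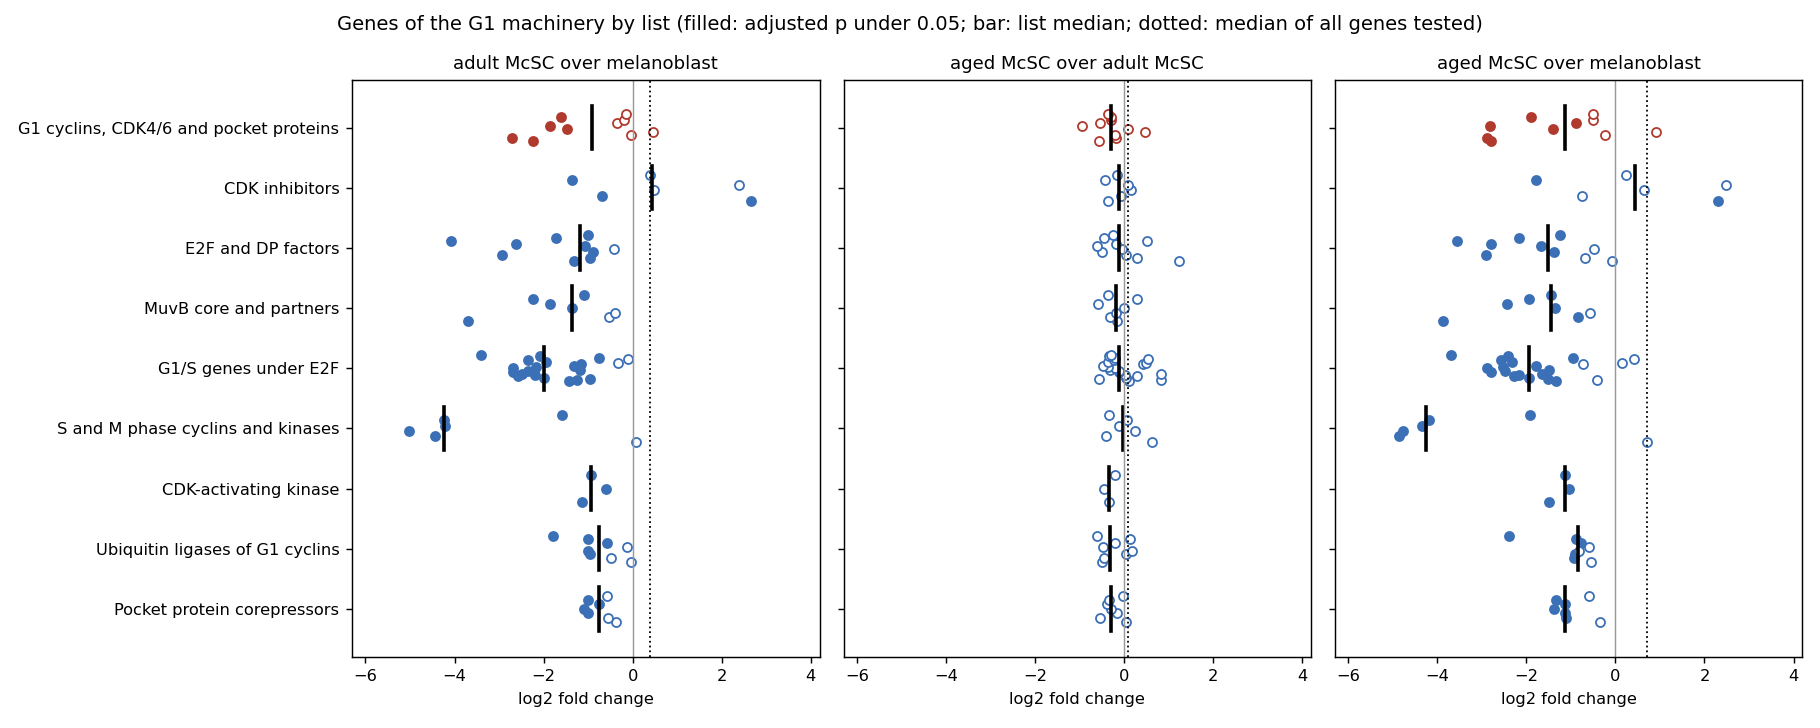
Log2 fold change of each gene tested in the 10 G1 genes (red) and 8 lists around them (blue) in the 3 comparisons, filled where the adjusted p was under 0.05, with the list median as a bar and the median of all genes dotted. Against melanoblasts the S and M phase list lies farthest below 0, with medians of -4.23 and -4.26, and in aged over adult McSC no point is filled.

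The E2F side of the switch was lower in adult McSC. Of 10 E2F and DP genes, 9 fell (median -1.19; 4 fell with the abundant gene factors). Among the 9, the call of E2f2 (adjusted p = 0.0372) held in 2 of 9 fits that left out 1 library and that of E2f4 in 8. E2f8 and E2f7, atypical repressors of the family, fell by 4.09 and 2.61, and the activator E2f3 fell by 2.94 in log2 terms (adjusted p = 2.58e-11, 5.31e-08 and 2.37e-09). Of 21 G1/S genes under E2F, 19 fell (median -1.98; 15 fell and 1 rose with the abundant gene factors), among them Uhrf1, a factor of DNA methylation maintenance, by 3.40 and the helicase subunits Mcm2 and Mcm3 by 2.68 and 2.35. Of 7 MuvB core genes and partners, 5 fell (median -1.36; 4 with the abundant gene factors). Foxm1 and Mybl2, which join MuvB in dividing cells, fell by 3.70 and 2.23, and Lin9, a core subunit, by 1.85 on the log2 scale. Of 6 S and M phase cyclins and kinases, 5 fell in both scalings (median -4.23), with log2 fold changes of -5.02, -4.44 and -4.22 for Ccnb1, Ccna2 and Ccnb2.

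The 3 genes of the CDK-activating kinase, Ccnh, Mnat1 and Cdk7, fell in adult McSC by 1.14, 0.93 and 0.59 on the log2 scale, and none was called with the abundant gene factors. The call of Cdk7 (adjusted p = 0.0468) was lost with DESeq2 (adjusted p = 0.0593) and without any 1 library other than melanoblast replicate 3 or adult replicate 2 (adjusted p up to 0.224), and that of Mnat1 without melanoblast replicate 1 (adjusted p = 0.0578). Of 8 genes of ubiquitin ligases that act on G1 cyclins, 5 fell (median -0.77; 1 rose and 1 fell with the abundant gene factors). Among the 5, the call of Fbxw7 (adjusted p = 0.0353) held in 2 of 9 fits that left out 1 library. Skp2, which targets p27 for degradation, fell by 1.78, the scaffold Cul3 by 0.96 and the adaptor Skp1a by 1.01 on the log2 scale. Of 7 corepressor genes of the pocket proteins, 4 fell (median -0.75; none with the abundant gene factors), with the demethylase Kdm5a at -1.09, the scaffold Sin3b at -1.01 and the deacetylase Hdac2 at -0.99. In adult McSC over melanoblasts the median of the 4043 abundant genes was -0.80, near the medians of the ligase and corepressor lists. Medians in aged McSC over melanoblasts ranged from -4.26 for S and M phase genes to 0.43 for CDK inhibitors, and in aged over adult McSC from -0.35 for the CDK-activating kinase to -0.03 for S and M phase genes. With the abundant gene factors all 8 medians in aged over adult McSC were above 0, from 0.027 to 0.31.

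For Ccnd1, Ccne1 and Rbl2, the genes with the nearest pattern over the 9 libraries were sought among 8139 protein-coding genes averaging at least 10 CPM, by the root mean square distance of centred log2 CPM. Nearest to Ccnd1 were Smarcd1 (0.15), Rnf144a (0.17) and Snx15 (0.17). Nearest to Ccne1 were Ptp4a1 (0.20), Brd2 (0.21) and Gclc (0.21), and nearest to Rbl2 were Sqle (0.05), Sbf1 (0.08) and Inpp4a (0.09). At the 3 ages Smarcd1 averaged 81.6, 17.8 and 13.1 CPM, close to the means of Ccnd1, which were 72.2, 15.4 and 10.4 CPM.

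Opposite-strand genes overlap exons of most of these genes, and whether counting used strand is not given in the sources used here. Tspan31 overlaps Cdk4 by 641 exonic bases and averaged 14.8 CPM in adult McSC and 38.0 CPM in melanoblasts, itself called lower (log2 fold change -1.36, adjusted p = 0.000358). LTO1 overlaps Ccnd1 by 1100 bases and was called lower as well (-0.84, adjusted p = 0.00921). Ints8 overlaps Ccne2 by 609 bases, was at 65.6 CPM in adult McSC and 89.5 CPM in melanoblasts against the far lower Ccne2, and was not called (-0.45, adjusted p = 0.0923). In aged McSC over melanoblasts, where Ccne2 fell, Ints8 was called lower (-1.01, adjusted p = 0.00331). Bysl overlaps Ccnd3 by 361 bases, and Rcbtb2 with Lpar6, and Aktip with Gm45464, overlap Rb1 and Rbl2 by 896 and 1585 bases in sum. Bysl and Aktip were called lower in adult McSC over melanoblasts (-0.86 and -0.81, adjusted p = 0.0147 and 0.00895), and Rcbtb2, Lpar6 and Gm45464 were not called. Reads from the shared bases cannot be told apart. The antisense genes at Ccnd2 and Cdk6 held at most 133 counts each over all libraries, the pseudogene Ccnd3-ps held 14, and Ccne1 and Rbl1 overlapped no other annotated exon.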

How the data were processed

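RNA of sorted skin cells was measured in 9 libraries. Per the labels' protocols, 20 ng of RNA was amplified to cDNA before library preparation with 10 PCR cycles, which can change the balance of transcripts and leaves no molecule counts. The authors deposited raw read counts per Ensembl gene. Per the submitters' processing notes, the tools were STAR 2.5.2, Trimmomatic 0.36, SAMtools 1.9, FastQC 0.11.8 and DESeq2 1.22.2, on mm10. How reads were assigned to genes, and whether by strand, is not given in the sources used here.

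Groups were taken from the sample titles. Symbols, coordinates and exon lengths came from GENCODE M21 (mm10), which matched 49326 of 49671 identifiers. The 345 without a match, 0.047% of counts, were tested too. Mitochondrial rRNA took 21.5% to 37.6% of a library, which lowers its TPM values. edgeR 4.0.16 (R 4.3.3) was run on the counts after filterByExpr (31961 genes kept) and TMM scaling. One fit held all 9 libraries with 1 mean per group, and 3 comparisons were tested by the robust quasi-likelihood F test at an adjusted p of 0.05. Standard errors were derived from the F statistic, and intervals are 1.96 SE each side. The steps were tested on simulated data without a general shift between groups, so that check does not cover the choice of scaling. The members, lists and alternatives were chosen with earlier results of these data known. Genes named from the 8 pathway lists were up to 3 per list with the smallest p among those called in adult McSC over melanoblasts, and from the 7 marker lists the most abundant one; Cdkn2a was named after its values were seen, as the list member not tested. Alternatives were RLE factors, factors from abundant genes, no filter, a filter of at least 5 CPM in at least 2 libraries, limma 3.58.1 (voom, weighted by library quality), DESeq2 1.42.0, a replicate block, each library left out, 2 libraries that stood apart left out together, and the length of the longest transcript. Libraries of a group differed by more than counting error (17.5 to 75.1 units of chi-square per degree of freedom), and each was counted as a replicate.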

Additional observations from a re-analysis of the deposited data

How the results depend on the processing

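In adult McSC over melanoblasts, the falls of Ccnd1, Ccnd2, Cdk4 and Rbl1 were called in every alternative run, and that of Ccne2 in all but the one with factors from abundant genes. With these factors 4 members were called higher in adult McSC and 4 in aged McSC over melanoblasts, against 0 each, and with the stricter filter 1 in each (Ccne1). Without adult replicate 1, 1 member was higher in aged McSC over melanoblasts. With the stricter filter Ccne2 and Cdk6 also lost their call in aged McSC over melanoblasts. In aged over adult McSC limma voom called 1 member lower. Except for Cdk6 in aged McSC over melanoblasts, the directions that turned belonged to genes not called with the factors over all genes. In adult McSC over melanoblasts Ccnd3 was at 0.76, 0.087 and 0.45 with abundant gene factors, without a filter and with the stricter filter, and up to 0.18 with a library left out (from -0.26). Cdk6, Rb1 and Rbl2 were at 0.47, 0.59 and 0.60 with abundant gene factors and 0.16, 0.29 and 0.31 with the stricter filter, and Rbl2 at 0.059 without adult replicate 1 (from -0.29 over left-out libraries). In aged over adult McSC Ccnd2 was at 0.19 and 0.035 and Ccnd3 at 0.18 and 0.026 with abundant gene factors and the stricter filter, and Rb1, Rbl1 and Rbl2 at 0.052, 0.068 and 0.021 with abundant gene factors. There Ccne2 was at -0.009, -0.01 and -0.022 with RLE factors, DESeq2 and limma voom. With a library left out, the lowest and highest values of Ccne2 were -0.54 and 0.51 and those of Ccnd2 -0.43 and 0.037. In aged McSC over melanoblasts Ccnd3 was at 0.93 and 0.48, Rb1 at 0.64 and 0.20 and Rbl2 at 0.62 and 0.18 with abundant gene factors and the stricter filter, Cdk6 at 0.25 with abundant gene factors, and Ccnd3 from -0.46 to 0.018 with a library left out. Rb1 and Rbl2 were called lower in aged McSC over melanoblasts by limma voom (adjusted p = 0.0172 and 0.0148) and without the 2 libraries that stood apart (melanoblast replicate 3 and adult replicate 2; adjusted p = 0.0312 and 0.0324). The cause of these changes was not tested, beyond the shift of the median of all genes that the factors themselves make.

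Over all genes in adult McSC over melanoblasts, the counts were 10416 higher and 1985 lower with abundant gene factors, 7508 higher with limma voom, 3346 lower with the stricter filter, 8071 higher without the 2 libraries that stood apart, and 3526 to 7400 higher with a library left out. In aged over adult McSC the counts were 11 higher with RLE factors, 32 higher and 25 lower with abundant gene factors, 102 and 241 without a filter, 28 and 44 with the stricter filter, 772 and 644 with limma voom, 49 and 290 with DESeq2, 52 and 226 without the 2 libraries, and 3 to 79 higher and 10 to 224 lower with a library left out. In aged McSC over melanoblasts they were 15341 higher and 1770 lower with abundant gene factors, 4160 and 3451 with the stricter filter, 10640 higher with limma voom, and 3127 to 9133 higher and 4283 to 7159 lower with a library left out. Same-numbered libraries of melanoblasts and adult McSC had deviations from their group means that correlated at -0.08, 0.20 and -0.04. Other pairs between these groups ranged from -0.236 to 0.285. These few values do not settle whether replicate numbers pair the libraries. With a replicate block the members called were the same in number, and 40 genes were higher and 132 lower in aged over adult McSC. With the longest transcript as length, 22 of the 54 mean shares and ratios moved by more than 1 SD, and the order of the group means of Ccnd3, Ccne1 and Rbl1 shares stayed as given. The order of Ccnd1 and Ccnd3 within adult and aged McSC turned. Depth limits the E cyclins most, with 72 counts in their lowest library.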
